A study of Mus musculus with 15 samples.

Results

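Fc receptors are the proteins with which cells bind the constant part of antibodies. The genes described here are Fcgr1, Fcgr2b, Fcgr3 and Fcgr4 for IgG, Fcer1a and Fcer2a for IgE, the shared signalling subunit Fcer1g, and Fcgrt, which carries IgG through cells. They were chosen by name, as probes that the platform annotation gives to exactly 1 of these 8 symbols. Of the 8 genes, 7 had a probe, 1 probe each, among 17225 probes on the array and 12909 genes with 1 symbol. Fcgr4 had no listed probe and was not analysed here.

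RNA of mouse alveolar macrophages, the phagocytes of the lung airspaces, was hybridised on 15 spotted 2-colour arrays against a common reference labelled Mac Ref, in 3 groups of 5 arrays. The wild type group (b6+/+Dox) carried the integrin beta6 gene, the beta6 null group (b6-/-Dox) lacked it, and the third (b6-/-TGFb+/+Dox) lacked it and was described as reconstituted with TGF-b1, read here as a transgene. Mice of all 3 groups had received doxycycline, so no group shows macrophages without it. The labels give no strain, age, sex or dose, no promoter for the TGFb1, and do not say that each array is another animal. The p-values therefore describe array-to-array spread alone, part of which may be technical. No wild type group with TGFb1 is among the samples. The series' title concerns cigarette smoking, which no label of these mice mentions. Integrin alphavbeta6 on lung epithelium activates latent TGFb, and the comparisons ask what differs in macrophages without it and with TGFb1 added.

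Activating IgG receptors, such as Fcgr1 and Fcgr3, signal through the gamma chain encoded by Fcer1g, whose tyrosine motif (ITAM) recruits the kinase Syk and starts phagocytosis and cytokine release. Fcgr2b is the inhibitory IgG receptor: its own motif (ITIM) recruits the phosphatase SHIP-1, the product of Inpp5d, and restrains the same signals. Macrophages carry both kinds, and the balance between them is known to tune the response to immune complexes. Fcgrt encodes FcRn, which pairs with beta2-microglobulin (B2m) and returns IgG from endosomes to the surface.

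Fcgr2b, Fcgr4, Fcgr3 and Fcer1g lie in this order on chromosome 1, with Fcer1a further along it, while Fcgr1 lies on chromosome 3, Fcgrt on 7 and Fcer2a on 8. The windows around the starts of the 3 measured IgG receptor genes are shown because the estimates for these genes with TGFb1, described below, lay on both sides of 0, although none passed the test. They are RefSeq sequence of build GRCm38.p6, each 250 bases before to 50 bases after the start, 5′ to 3′ on the minus strand, at chr1:170976022-170976321 for Fcgr2b, chr1:171059354-171059653 for the first of the Fcgr3 windows and chr3:96293920-96294219 for Fcgr1. Capitals mark matches, on either strand, to the SMAD box CAGAC, which TGFb signalling proteins bind, to GAGGAA, the core of PU.1 sites, and to TTCNNNGAA, the interferon gamma-activated sequence.
Fcgr2b: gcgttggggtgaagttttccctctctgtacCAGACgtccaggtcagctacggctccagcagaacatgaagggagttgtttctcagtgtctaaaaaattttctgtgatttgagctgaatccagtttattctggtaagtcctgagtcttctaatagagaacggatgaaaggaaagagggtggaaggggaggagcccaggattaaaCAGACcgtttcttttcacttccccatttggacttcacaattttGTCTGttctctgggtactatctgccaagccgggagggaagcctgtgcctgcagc
Fcgr3: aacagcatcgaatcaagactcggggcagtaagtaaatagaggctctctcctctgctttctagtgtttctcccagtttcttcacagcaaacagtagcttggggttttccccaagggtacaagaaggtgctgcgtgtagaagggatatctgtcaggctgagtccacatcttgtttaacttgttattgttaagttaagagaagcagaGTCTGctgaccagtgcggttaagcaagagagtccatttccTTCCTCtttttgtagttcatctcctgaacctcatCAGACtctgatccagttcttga
Fcgr1: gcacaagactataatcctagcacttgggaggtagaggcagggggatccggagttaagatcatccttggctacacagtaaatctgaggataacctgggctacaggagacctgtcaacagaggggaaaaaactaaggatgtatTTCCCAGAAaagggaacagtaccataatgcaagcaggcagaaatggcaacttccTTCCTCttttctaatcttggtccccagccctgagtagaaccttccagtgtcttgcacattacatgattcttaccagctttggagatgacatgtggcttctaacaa
The Fcgr2b window held 3 SMAD boxes, 220, 47 and 4 bases before the start, and no match to the other motifs. The Fcgr3 window held GTCTG 46 bases before and CAGAC 29 bases after the start, with TTCCTC, the PU.1 core on the other strand, 6 bases before it. The Fcgr1 window held TTCCCAGAA 109 bases before and TTCCTC 55 bases before the start, and no SMAD box. Human FCGR1A is known to respond to interferon gamma through an element of this kind beside a PU.1 site. Of 32851 windows of this length in the table, 49.6% held CAGAC, 28.3% GAGGAA and 8.3% TTCNNNGAA, none of the 3 motifs overlapping another in the windows shown. These matches are letters in a window and were not tested as sites.

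All values below are log2 ratios of a sample to the reference, after each array was centred on its median. The base and the direction of the deposited ratios are not stated. Base 2, with the sample over the reference, was taken as likely, given that channel 1 holds the reference and that Mmp12, a protease known to rise in macrophages without beta6, then comes out higher in beta6 null, by 4.31 (SE 0.42, limma adjusted p = 1.83e-04). If the direction were the opposite, every sign would turn. A probe's value is compared between arrays only, never with another probe's. Arrays gave 11615 to 16483 values each, and any 2 of them correlated at r between 0.194 and 0.576. The widest values were those of wild type replicate 2 and beta6 null replicate 1, where 5511 and 5610 probes had no value. The ratios are set against macrophage RNA and give no absolute level, so the label of the cells could not be checked by the presence of markers. In RNA from such samples, fewer cells of a type and less RNA per cell cannot be told apart.

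**Figure D1:**
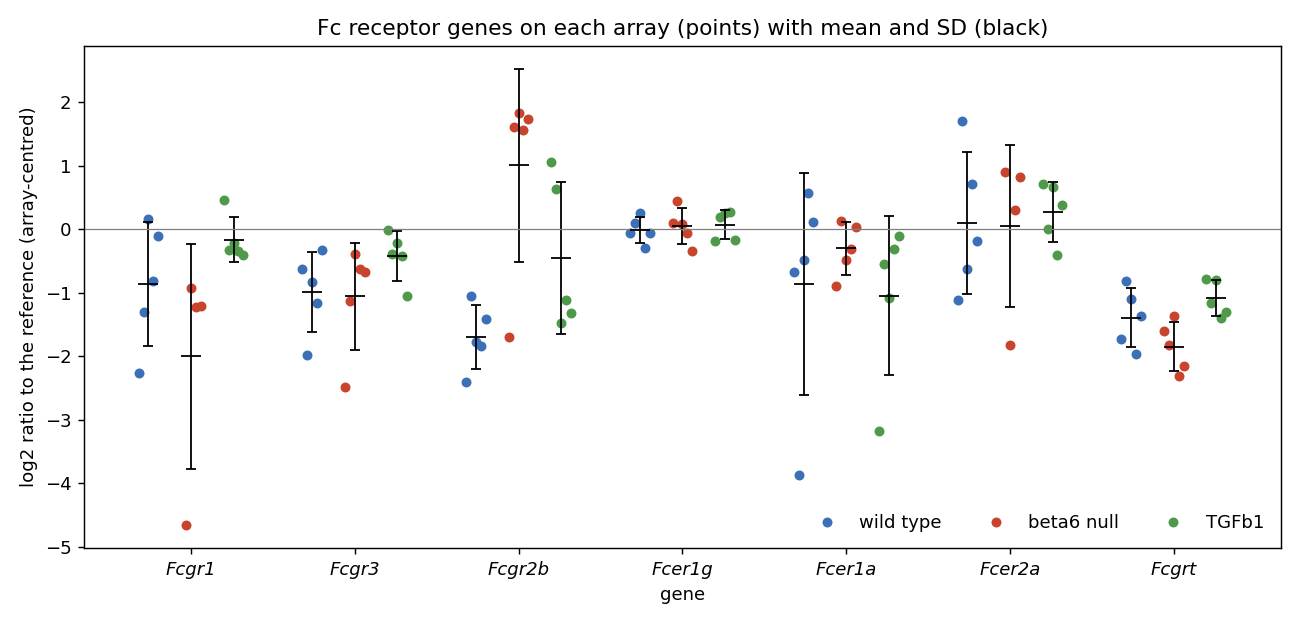
Log2 ratio to the reference (vertical axis) for the 7 measured Fc receptor genes (horizontal axis), with 1 point per array in each group of 5 and the mean and SD in black. The beta6 null arrays of Fcgr2b sit between 1.56 and 1.83 but for 1 at -1.70, while the wild type arrays lie between -2.40 and -1.05.

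Fcgr2b, the inhibitory receptor, had the largest difference between beta6 null and wild type among the 7 genes. In wild type its log2 ratios were -2.40, -1.05, -1.77, -1.84 and -1.41. In beta6 null they were -1.70, 1.60, 1.83, 1.56 and 1.74, and with TGFb1 1.05, 0.63, -1.48, -1.11 and -1.33. Thus 4 of 5 beta6 null arrays lay above every wild type array and replicate 1 lay among them, while the TGFb1 arrays fell into 2 above and 3 within the wild type range.

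The wild type mean was -1.70 ± 0.50, the beta6 null mean 1.01 ± 1.52 and the TGFb1 mean -0.45 ± 1.19 (SD, n = 5 each). The beta6 null mean was 2.70 higher than wild type (SE 0.68, 95% interval 1.25 to 4.15), a ratio of 6.51. By limma this had an unadjusted p of 0.00123 and an adjusted p of 0.0863 over 13285 features, and so did not pass at 0.05. Its call turned on 1 array: without beta6 null replicate 1 the difference was 3.38 with a limma adjusted p of 0.00446. It also passed in 3 other settings of 29, with values on all 15 arrays (2.70, adjusted p = 0.0458), with array weights (3.31, adjusted p = 7.57e-04) and without the 2 widest arrays (3.54, adjusted p = 0.00536), and missed in the other 25. The difference was above 0 in all 29.

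With TGFb1 the Fcgr2b mean was 1.46 lower than in beta6 null (difference -1.46, SE 0.68, 95% interval -2.90 to -0.01, limma unadjusted p = 0.0492, adjusted p = 0.331). It passed in 2 of 29 other settings, with array weights (-2.23, adjusted p = 0.0119) and without the 2 widest arrays (-2.13, adjusted p = 0.0454). Over the 29 the difference ran from -2.23 to -0.48, with limma adjusted p up to 0.925. Against wild type the TGFb1 arrays were 1.25 higher (SE 0.68, 95% interval -0.20 to 2.70, limma adjusted p = 0.820). The arrays were also split into 4 runs by the numbers in their titles, whose meaning the labels do not give. The limits of these runs were chosen here and are not given by the labels. Some of them part arrays whose numbers follow on directly. Within the runs the Fcgr2b difference between TGFb1 and beta6 null was not of 1 sign. It was 0.89 in the run with TGFb1 replicates 1 and 2 and beta6 null replicates 1 and 2. The difference was -3.13 in the run with TGFb1 replicates 3 and 4, and -2.89 in the run with replicate 5. The 0.89 rested on beta6 null replicate 1, at -1.70. Beta6 null replicate 2, at 1.60, lay above both TGFb1 arrays of that run, at 1.05 and 0.63. With these runs as a block the Fcgr2b difference was -1.37 (limma adjusted p = 0.418). In the order beta6 null, TGFb1, wild type, no neighbouring pair differed past the threshold, nor did the ends.

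Xist, the RNA of the inactive X of female cells, also differed between the groups. Wild type arrays ranged from -4.14 to -2.37, beta6 null arrays from -2.46 to 0.88 and TGFb1 arrays from -3.48 to -2.27. Beta6 null minus wild type was 2.69 for Xist (limma adjusted p = 0.0446), a call lost without any single array but beta6 null replicates 1 and 4 (13 of 15, adjusted p 0.0522 to 0.120). With the Xist ratio of each array as a covariate, the Fcgr2b difference was 1.72 (SE 1.07, adjusted p = 0.742), and 0 of all features passed in that fit. On beta6 null replicate 1 Xist was at -1.45, and on replicate 4, where Fcgr2b was at 1.56, Xist was at -2.46. Its part in the result was not tested further. The number that ends the array titles, whose meaning is not given, split the groups unevenly: the Fcgr2b difference was 2.55 among titles ending in 1 (4 beta6 null and 2 wild type arrays) and 3.41 among those ending in 2 (1 and 3 arrays). Within the 3 runs of title numbers that hold both groups it was 2.35, 3.36 and 3.25, and with the runs as a block 2.82 (SE 0.81, adjusted p = 0.262).

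**Figure D2:**
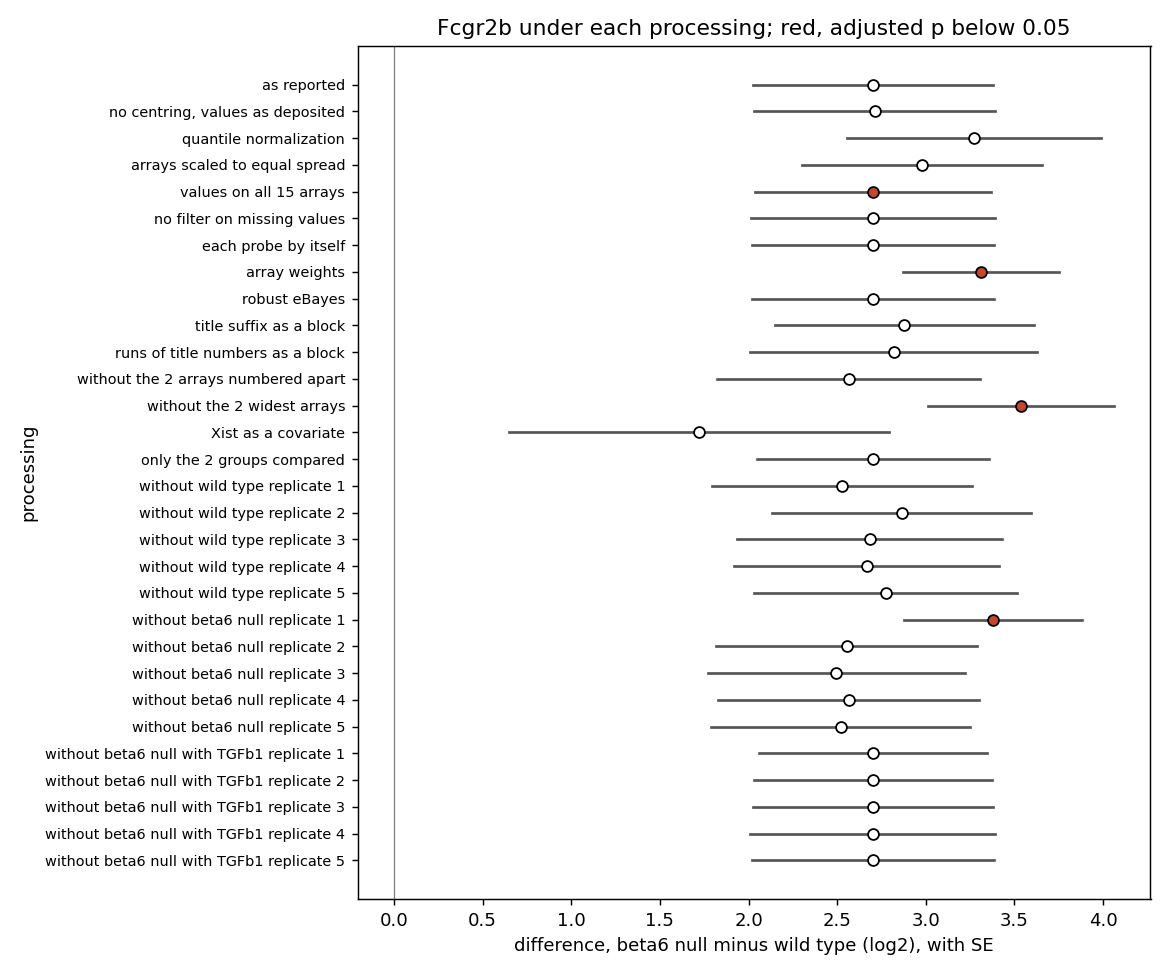
Difference of Fcgr2b between beta6 null and wild type (log2, horizontal axis, bars 1 SE) as reported and in 29 other settings (vertical axis), filled red where the adjusted p lay below 0.05. Every point lies between 1.72 and 3.54.

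Fcgr2b had its highest mean in beta6 null, whereas the activating receptors Fcgr1 and Fcgr3 had their lowest there. None of these differences passed as reported, and the genes were not tested against each other. Fcgr1 (CD64), the high-affinity IgG receptor, had wild type log2 ratios of -2.27, -1.31, 0.16, -0.81 and -0.11. In beta6 null it had values on 4 arrays, -4.66, -0.93, -1.22 and -1.21, and with TGFb1 they were 0.45, -0.33, -0.22, -0.34 and -0.41. All 5 TGFb1 arrays lay above all 4 beta6 null arrays, whereas wild type overlapped both. Among all features, 8.24% had groups that did not overlap in this comparison, and of the 7 Fc receptor genes 1 did, Fcgr1. In beta6 null against wild type and in TGFb1 against wild type, 0 of 7 had such groups, beside 5.11% and 2.87% of all features.

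The Fcgr1 means were -0.87 ± 0.97 (SD, n = 5), -2.004 ± 1.78 (n = 4) and -0.17 ± 0.35 (n = 5). TGFb1 minus beta6 null was 1.84 (SE 0.70, 95% interval 0.34 to 3.33, limma unadjusted p = 0.0199, adjusted p = 0.230). Beta6 null replicate 2, at -4.66, set much of that: without it the difference was 0.95 (adjusted p = 0.407). The beta6 null minus wild type difference of -1.14 (SE 0.70, adjusted p = 0.545) became -0.25 without the same array (adjusted p = 0.882). TGFb1 minus wild type was 0.70 (SE 0.66, adjusted p = 0.874), and 0.35 without wild type replicate 1. Within the 3 runs of title numbers that hold both groups, TGFb1 minus beta6 null was 4.72, 0.65 and 0.81 for Fcgr1, the first resting on beta6 null replicate 2.

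Fcgr3 (CD16), a low-affinity activating receptor, had wild type values of -0.63, -1.97, -0.83, -1.16 and -0.34. In beta6 null they were -2.49, -1.13, -0.39, -0.62 and -0.68, and with TGFb1 -0.01, -0.39, -0.23, -0.42 and -1.06, so the groups overlapped in every comparison, with 3 of 5 TGFb1 arrays above all beta6 null arrays. The limma differences were -0.08 for beta6 null minus wild type (SE 0.41, 95% interval -0.95 to 0.80, adjusted p = 0.959), 0.64 for TGFb1 minus beta6 null (SE 0.41, adjusted p = 0.494) and 0.57 for TGFb1 minus wild type (SE 0.41, adjusted p = 0.833). Without beta6 null replicate 1 the second was 0.28, and without wild type replicate 2 the third was 0.32. The Fcgr3 and Fcgr2b proteins have nearly identical antibody-binding parts in mice, and the probe sequences were not used here, so cross-hybridisation between their probes was not tested. The 2 probes correlated at r = 0.31 over 15 arrays.

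Fcer1g, the gamma chain that Fcgr1 and Fcgr3 need, varied little, with all 15 arrays between -0.34 and 0.44. Its wild type mean was -0.01 ± 0.20, its beta6 null mean 0.05 ± 0.29 and its TGFb1 mean 0.07 ± 0.23 (SD, n = 5 each). The beta6 null minus wild type difference was 0.06 (SE 0.23, 95% interval -0.43 to 0.55, limma adjusted p = 0.943), which bounds a change of its ratio to between 0.742 and 1.46 in that fit. TGFb1 minus beta6 null was 0.03 (SE 0.23, 95% interval -0.46 to 0.52, limma adjusted p = 0.970).

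Fcgrt had its lowest mean in beta6 null, but none of its differences passed the threshold as reported. Its wild type values were -1.73, -0.82, -1.11, -1.97 and -1.36, those of beta6 null -1.60, -1.82, -1.37, -2.30 and -2.16, and those with TGFb1 -0.78, -1.16, -0.80, -1.40 and -1.30. Of the TGFb1 arrays, 4 of 5 lay above every beta6 null array, and 2 of 5 beta6 null arrays lay below every wild type array. TGFb1 minus beta6 null was 0.76 (SE 0.29, 95% interval 0.16 to 1.37, limma unadjusted p = 0.0173, adjusted p = 0.218), a ratio of 1.70. It passed in 1 of 29 other settings, with array weights (0.96, adjusted p = 0.0252). Over the 29 it ran from 0.30 to 0.98, with limma adjusted p up to 0.824. Beta6 null minus wild type was -0.45 (SE 0.29, adjusted p = 0.553) and TGFb1 minus wild type 0.31 (SE 0.29, adjusted p = 0.869), which was 0.17 without wild type replicate 4. Within the runs of title numbers that hold both groups, TGFb1 minus beta6 null was 0.74, 0.28 and 1.01 for Fcgrt. Beta6 null minus wild type was 0.02, -0.49 and -0.41 within the runs that hold those groups.

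B2m, the partner of FcRn, was -0.43 in beta6 null minus wild type (SE 0.29, limma adjusted p = 0.580) and 0.25 in TGFb1 minus beta6 null (adjusted p = 0.733). Without beta6 null replicate 1, at -1.22, these became -0.17 and -0.01. Among 15 genes of endosomal recycling, 13 were tested and 0 passed by limma in any of the 3 comparisons, with medians of 0.07, 0.21 and 0.03. With quantile normalization these were -0.003, 0.04 and -0.13, and with equal spread -0.005, 0.04 and -0.12. Rab11a, a GTPase of recycling endosomes, differed by 0.07 between beta6 null and wild type (SE 0.30, limma adjusted p = 0.948).

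The IgE receptors varied widely within groups. Fcer1a, the alpha chain of the high-affinity receptor of mast cells and basophils, ran from -3.87 through a median of -0.48 to 0.57 in wild type. It ran from -0.89 to 0.13 in beta6 null and from -3.18 to -0.11 with TGFb1, the groups overlapping throughout. Its differences were 0.57 for beta6 null minus wild type (SE 0.74, limma adjusted p = 0.802), -0.74 for TGFb1 minus beta6 null (SE 0.74, adjusted p = 0.686) and -0.18 for TGFb1 minus wild type (SE 0.74, adjusted p = 0.979). The first became -0.19 without wild type replicate 2, and the second -0.21 without TGFb1 replicate 1. Ms4a2, the beta chain of that receptor, had values on too few arrays (4, 4 and 2) to be tested. Of 14 mast cell and basophil markers 8 were tested and 0 passed, and their mean over an array was -0.35 to 0.59 for wild type, 0.04 to 0.38 for beta6 null and -0.72 to 0.12 for TGFb1.

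Fcer2a (CD23), the low-affinity IgE receptor of B cells and some activated macrophages, had 14 values from -1.82 to 1.70. Its means were 0.09 ± 1.12 (SD, n = 5), 0.05 ± 1.27 (n = 4) and 0.27 ± 0.47 (n = 5). Beta6 null minus wild type was -0.04 (SE 0.62, 95% interval -1.38 to 1.30, limma adjusted p = 0.987) and TGFb1 minus beta6 null 0.22 (SE 0.62, adjusted p = 0.905). TGFb1 minus wild type was 0.18 (SE 0.59, adjusted p = 0.971), and the groups overlapped in all 3 comparisons.

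**Figure D3:**
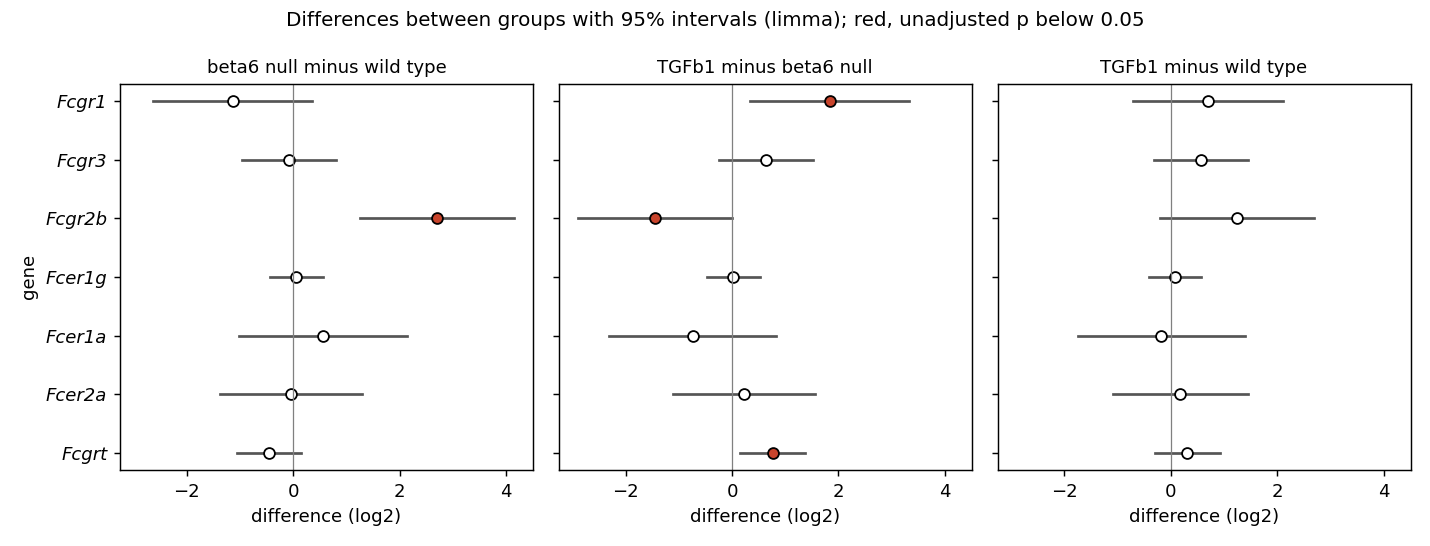
Differences (log2, horizontal axis) of the 7 Fc receptor genes (vertical axis) in the 3 comparisons, with 95% limma intervals, red where the unadjusted p lay below 0.05. Red points are Fcgr2b in beta6 null minus wild type, and Fcgr1, Fcgr2b and Fcgrt in TGFb1 minus beta6 null.

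Counted over the genes, 0 of 7 passed by limma in beta6 null against wild type, where 0.948% of 13285 features did. None (0 of 7) passed in TGFb1 against beta6 null either, where 0.708% of features did, nor in TGFb1 against wild type, where 0% did. At an unadjusted p below 0.05 the counts were 1 of 7 (Fcgr2b, against 11.5% of all features), 3 of 7 (Fcgr1, Fcgr2b and Fcgrt, against 15%) and 0 of 7 (against 6.29%). The first 2 comparisons share the beta6 null arrays, so a gene that is high or low there differs in both. The median difference over the genes was -0.04, 0.22 and 0.31 in the 3 comparisons, beside -0.05, 0.12 and 0.07 over all features. The first of these medians turned to 0.13 with quantile normalization and 0.12 with arrays scaled to equal spread, and the second to 0.10 and 0.13, beside 0.07 and 0.14 over all features. On simulated data with these arrays, 84% of genes changed by 3 log2 units and 56% of those changed by 2 were recovered between beta6 null and wild type, so a change of the size estimated for Fcgr2b can be missed.

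Other immunoglobulin-binding proteins and receptor subunits, B2m among them, were read from a list of 15 genes, of which 7 were tested. This and the other lists were chosen with earlier results of these data known, so their counts are a description and no test of a list. Fcrls, an Fc receptor-like scavenger receptor on chromosome 3, rose in beta6 null. It was the 1 of 7 to pass, where 0.948% of all features did. Its wild type values were 0.62, -0.96, 0.41 and -0.56 on 4 arrays, those of beta6 null 3.89, 3.47, 2.32, 2.41 and 2.36, and those with TGFb1 2.79, 2.82, 0.51, 0.02 and 0.62. The beta6 null and wild type arrays did not overlap, and the TGFb1 arrays overlapped both. Beta6 null minus wild type was 3.01 (SE 0.64, limma adjusted p = 0.0409), 8.06-fold. This call lay near the threshold: the adjusted p ran from 0.0505 to 0.125 in the settings that left out any single wild type array, beta6 null replicates 1 to 4 or TGFb1 replicates 3 or 5. Over 28 other settings Fcrls passed in 11, with limma adjusted p from 0.00549 to 0.403. The lowest came with the runs of title numbers as a block (2.88), a setting added after seeing the data. TGFb1 minus beta6 null was -1.54 (SE 0.60, adjusted p = 0.243), and 0 of 7 genes of the list passed there or against wild type.

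Among 33 transducers downstream of activating Fc receptors, 25 were tested, of which 2 rose and 1 fell in beta6 null. Of all features 0.948% passed there. Lat2 (NTAL), an adaptor that the gamma chain's kinases phosphorylate, rose by 4.72 (SE 0.64, limma adjusted p = 0.00144), 26.3-fold, from -0.49 to 0.08 in wild type to 2.72 to 6.09 in beta6 null. Blnk, an adaptor of B cells and macrophages, rose by 2.87 (SE 0.61, adjusted p = 0.0409), and Fgr, a Src family kinase of myeloid cells, fell by 2.11 on the log2 scale (SE 0.45, adjusted p = 0.0491). With TGFb1, Lat2 was lower than in beta6 null, with a difference of -3.10 (SE 0.64, adjusted p = 0.0398), while 0 of the 25 passed against wild type. Syk, the kinase that binds the ITAM, was -0.56 (SE 0.33, adjusted p = 0.532) in beta6 null minus wild type. Lyn had no listed probe and was not analysed here. These calls, apart from the rise of Lat2, lay near the threshold: that of Blnk was lost without any of 7 arrays (wild type replicates 1, 3, 4 and 5 and beta6 null replicates 1 to 3, adjusted p 0.0697 to 0.106), and those of Fgr and of the Lat2 fall without any of 11 of the 15 (0.0523 to 0.134 and 0.0529 to 0.124).

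Of 20 inhibitory receptors and phosphatases 18 were tested, of which 1 rose and 1 fell in beta6 null, where 0.948% of all features passed. Inpp5d (SHIP-1), the effector of Fcgr2b, was -1.22 in beta6 null minus wild type (SE 0.58, limma adjusted p = 0.444). It was -0.62 without beta6 null replicate 1, at -4.25, and -0.22 without both of the widest arrays. Ptpn6 (SHP-1) was -0.73 (SE 0.41, adjusted p = 0.502), and -0.44 without beta6 null replicate 3. Dok2, a docking protein that restrains tyrosine kinases, rose by 1.76 (SE 0.35, adjusted p = 0.0272), and Pilra, an inhibitory myeloid receptor, fell by 1.51 on the log2 scale (SE 0.32, adjusted p = 0.0409). Pilra rose with TGFb1 from beta6 null by 1.67 (SE 0.32, adjusted p = 0.0332), the 1 of 18 to pass there, beside 0.708% of all features. Against wild type 0 passed. The Dok2 call was lost without wild type replicates 1, 4 or 5 or beta6 null replicate 2 (adjusted p 0.0546 to 0.0818). Those of Pilra were lost without any of 11 of the 15 arrays in the first comparison (0.0502 to 0.118) and without beta6 null replicate 2 or TGFb1 replicates 1 to 4 in the second (0.0647 to 0.103).

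Of 19 other receptors that use ITAM adaptors 12 were tested and 0 passed by limma in any comparison, with medians of -0.54, 0.41 and 0.00. Tyrobp (DAP12), their adaptor, was -0.09 in beta6 null minus wild type (SE 0.26, adjusted p = 0.922). Of 28 genes of the phagocytic cup 17 were tested, and 0 passed in the comparisons with TGFb1. Pld2, a phospholipase of the forming phagosome, was the 1 to pass in beta6 null against wild type, where 0.948% of all features did. It fell by 1.26 on the log2 scale (SE 0.28, adjusted p = 0.0458). The Pld2 call was lost without any but beta6 null replicates 1 and 5 (13 of 15 arrays, adjusted p 0.0521 to 0.127). The interferon gamma response, which induces Fcgr1, had 22 of 25 genes tested and 0 passed, with medians of 0.15, 0.23 and 0.24. The first of these became -0.03 with arrays scaled to equal spread and the second -0.04 with quantile normalization.

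**Figure D4:**
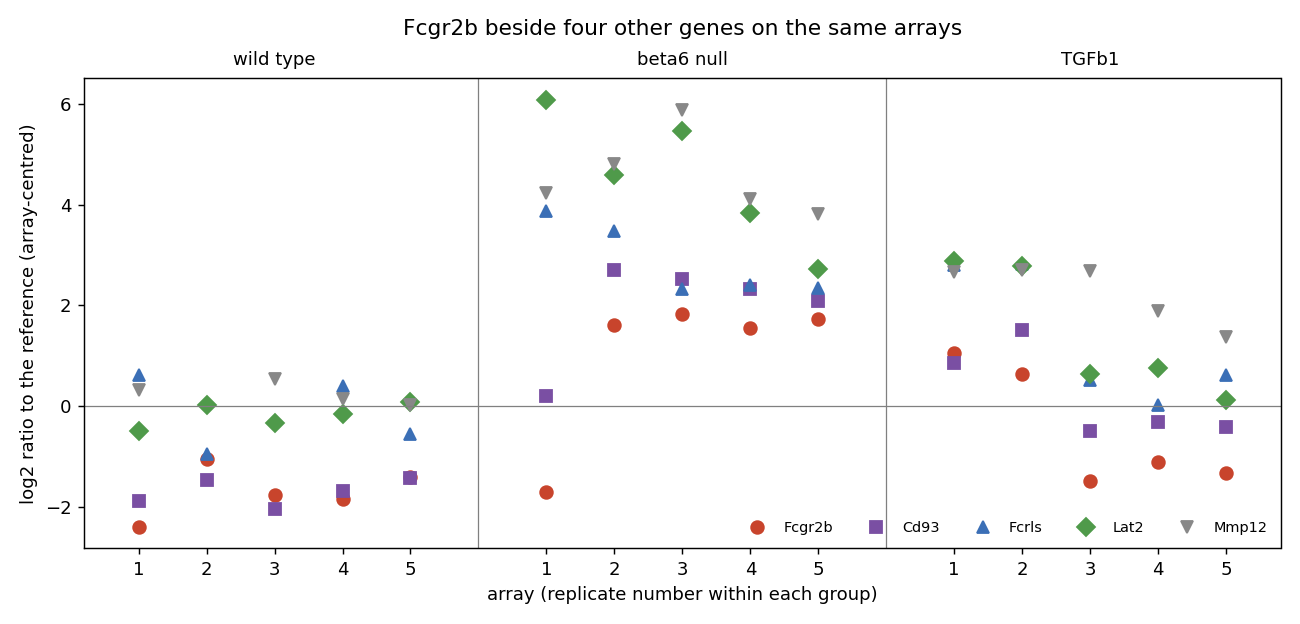
Log2 ratio to the reference (vertical axis) of Fcgr2b, Cd93, Fcrls, Lat2 and Mmp12 on each array (horizontal axis, replicate number within each group). On beta6 null replicate 1 Fcgr2b lies at -1.70 while Lat2 lies at 6.09, and TGFb1 replicates 1 and 2 lie above replicates 3, 4 and 5 in Fcgr2b, Cd93, Fcrls and Lat2.

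Beta6 null replicate 1 did not stand apart the same way in these 5 genes. On it Fcgr2b was at -1.70 and Cd93 at 0.20, below the other 4 beta6 null arrays for both, whereas Lat2 was at 6.09 and Fcrls at 3.89, above the other 4. Mmp12 was at 4.24 there, within the 3.81 to 5.88 of the others. TGFb1 replicates 1 and 2, which share a run of title numbers with beta6 null replicates 1 and 2, lay above replicates 3, 4 and 5 in Fcgr2b, Cd93, Fcrls and Lat2, and in Mmp12 replicate 3 (2.69) matched them. The part of that run in the result was not tested beyond the block.

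The genes closest to each Fc receptor gene over the arrays were taken by Pearson's r among 10089 genes (9705 for Fcgr1 and Fcer2a). They are given as a description, since the arrays share groups, the reference and differences in spread. For Fcgr2b they were Cd93, a lectin-like receptor of myeloid and endothelial cells (r = 0.93, 15 arrays), Irf4, a transcription factor of alternatively activated macrophages and B cells (r = 0.88, 15 arrays), and Gbp8 (r = 0.88, 14 arrays). Cd93 rose in beta6 null by 3.67 (SE 0.49, limma adjusted p = 0.00127) and was -1.74 in TGFb1 minus beta6 null (SE 0.49, adjusted p = 0.109). For Fcgr1 the closest were Dnajb14 (0.96, 12 arrays), Atr (0.94, 12 arrays) and Aldh9a1 (0.94, 14 arrays), and for Fcgr3 Mthfs (0.96), Blcap (0.95) and Rnf7 (0.95), each over 15 arrays. Fcgrt was closest to Aurkb (0.91, 15 arrays), Cyrib (0.89, 14 arrays) and the immunoproteasome subunit Psmb8 (0.88, 15 arrays). Fcer1g was closest to Cacng7 (0.92), Fcer1a to Krtap5-2 (0.95) and Fcer2a to the costimulatory ligand Cd86 (0.94, 12 arrays). Spearman's rank correlation was lower for some pairs, at 0.63 for Fcgr2b with Irf4, 0.73 for Fcgr1 with Atr and 0.60 for Fcer1a with Krtap5-2. For others it was higher, as for Fcer1g with Cacng7 (0.97). Between the Fc receptor genes themselves r ran from -0.66 (Fcer1a and Fcgrt) to 0.48 (Fcgr1 and Fcgrt).

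Markers of cells that also carry Fcgr2b were set beside it. Of 13 B and plasma cell markers 9 were tested and 0 passed by limma, with 7 of 9 above 0 in beta6 null minus wild type, where 46.8% of all features were. Their mean over an array was -0.41 to 0.05 for wild type, 0.01 to 0.94 for beta6 null and -0.45 to 0.08 for TGFb1. The median of the list in beta6 null minus wild type, 0.77, became 0.46 with quantile normalization and 0.43 with equal spread. Cd79b was 1.84 in beta6 null minus wild type (SE 0.64, adjusted p = 0.273) and Cd79a 0.24 (SE 0.45, adjusted p = 0.870), the 2 signalling chains of the B cell receptor. Of 15 monocyte and dendritic cell markers 11 were tested, and their mean was -0.67 to 0.19 for wild type, 0.21 to 0.62 for beta6 null and -0.24 to -0.09 for TGFb1 arrays. Their median in beta6 null minus wild type, 0.61, became 0.30 with quantile normalization and 0.17 with equal spread. In TGFb1 minus beta6 null the median went from -0.45 to -0.13 and 0.001 in the same settings. In beta6 null minus wild type 9 of the 11 were above 0 and 2 below, beside the 46.8% of all features above 0. Of the 11, 1 passed in that comparison, where 0.948% of all features did: Ly75, which fell by 2.72 on the log2 scale (limma adjusted p = 0.00118). With TGFb1 Itgae fell by 3.89 on the log2 scale from beta6 null (adjusted p = 0.0332), a call lost without beta6 null replicates 2, 3 or 5 (0.0504 to 0.0791). The part of these cells in the Fcgr2b result was not tested, and a probe at a ratio near 0 does not show that a marker was absent.

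The alveolar macrophage markers moved with the groups as well. Of 20 tested of 24, 6 fell in beta6 null (Fabp1, Olr1, Il18, Flt1, Cidec and Krt19), where 0.948% of all features passed. With TGFb1 5 rose from beta6 null (Pparg, Fabp1, Olr1, Il18 and Krt19), where 0.708% passed, while 0 passed against wild type. The list was chosen with earlier results of these data known, so these counts are a description and no test of the list. Without 1 array, the falls of Cidec (wild type replicates 3 or 5) and Krt19 (wild type replicates 1, 3 or 5, beta6 null replicates 2 or 3) and the rises of Krt19 (TGFb1 replicates 3 or 4) and Pparg (beta6 null replicates 2 or 4, TGFb1 replicates 1 to 4) were lost, with adjusted p of 0.0515 to 0.103. The mean of the list was -1.18 to -0.45 for wild type, -2.05 to -1.85 for beta6 null and -1.16 to -0.50 for TGFb1 arrays. Among 8 tested pan-macrophage markers, 3 were above 0 and 5 below in beta6 null minus wild type. Their median was -0.12, and became 0.03 with quantile normalization and -0.003 with equal spread. Of these, Ctsb rose in beta6 null by 1.58 (limma adjusted p = 0.0466) and Adgre1, a surface marker of macrophages, was -0.15 (SE 0.24, adjusted p = 0.838). Among 9 neutrophil markers, 5 were above 0 and 4 below in beta6 null minus wild type (median 0.37), and S100a8 rose by 2.12 (adjusted p = 0.00148). The mean of that list was -0.73 to 0.05 for wild type, -0.26 to 0.87 for beta6 null and -1.20 to 0.01 for TGFb1 arrays. Among 10 markers of lung epithelium, 7 were above 0 and 3 below (median 0.26), and Sftpc rose by 2.18 (adjusted p = 0.0458) while Epcam fell by 2.34 on the log2 scale (adjusted p = 0.0141) and rose again with TGFb1 from beta6 null by 1.98 (adjusted p = 0.0443). In the pan-macrophage and neutrophil lists 0 passed in the other comparisons, and of 6 eosinophil and 12 T and NK cell markers 0 passed in any of the 3 comparisons by limma. The calls of Ctsb (14 of 15), Sftpc (11 of 15) and the Epcam rise (11 of 15) were lost without most single arrays, with adjusted p up to 0.150.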

How the data were processed

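Per the labels, 15 alveolar macrophage RNAs were hybridised against a common reference on 2-colour arrays. The authors deposited 1 log ratio per probe and array, taken as log2. The authors' steps behind these log2 ratios (dyes, scanning, background, normalization) and their genome build are not given in the sources used here. Deposited array medians lay within 0.047 of 0. The number of arrays limits the precision.

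Of 17225 probes, 18 control spots were left out. Of the other 17207, 13972 carried 1 symbol, 13 several and 3222 were not listed. Symbols of 13869 were updated by Entrez ID through a RefSeq table (GRCm38.p6). Probes of a gene were averaged (988 genes, no Fc receptor gene among them). Arrays were centred on their medians. A feature was kept if each group had 3 or more values for it (13285 were). Values missing on an array were left out of that feature's fit, not imputed.

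Group means were estimated in 1 linear model of the 15 arrays by limma 3.58.1 (lmFit, eBayes; R 4.3.3), with Benjamini-Hochberg adjustment over all features and a threshold of 0.05. Errors of differences are its standard errors. Differences are the first named group minus the second. The fit was tested on simulated data that kept the arrays' missing values.

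The members, the 7 pathway and 9 marker lists and the alternatives were chosen with earlier results of these data known. The text names each Fc receptor gene, up to 4 passing genes per list and comparison, direct partners, Mmp12 and the 3 genes most alike by Pearson's r. Xist, the genes Rab11a, Adgre1, Cd79a and Cd79b, and the genes plotted beside Fcgr2b were chosen after their values were seen. Alternatives changed the centring, scaling, filter, weights, blocks, covariate and arrays, and those for genes outside the Fc receptors, and the block on runs of title numbers, were added after seeing the data.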

Additional observations from a re-analysis of the deposited data

Results flagged for a closer look

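Each value here lay far from the other arrays of its group, by a gap above Dixon's 95% critical value. Of 21 groups of the 7 Fc receptor genes, 4 held such an array, where chance gives about 1 in 20. Fcgr2b on beta6 null replicate 1 was at -1.699, with the other 4 arrays between 1.56 and 1.833. Fcgr1 on beta6 null replicate 2 was at -4.662, with the other 3 values between -1.218 and -0.926. Fcgr1 on TGFb1 replicate 1 was at 0.451, above the -0.406 to -0.218 of the other 4. Fcer1a on wild type replicate 2 was at -3.87, below the -0.678 to 0.569 of the others. Wild type replicate 2 and beta6 null replicate 1 are the arrays with the widest values.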

How the results depend on the processing

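No paired analysis was possible because the replicate numbers follow accession order and pair no samples. A block on 4 runs of title numbers, whose limits were chosen here, was added after seeing the data. It changed no call of an Fc receptor gene and gave 47 and 34 features in the first 2 comparisons. The count of Fc receptor genes past the threshold in beta6 null against wild type, 0 as reported, was 1 with values on all 15 arrays, with array weights and without the 2 widest arrays, and ran from 0 to 1 when 1 array was left out. In TGFb1 against beta6 null it was 2 with array weights, 1 without the 2 widest arrays and 0 in every setting that left out 1 array. The gene was Fcgr2b each time, with Fcgrt as the second. Of 603 values of single genes, 556 kept their sign and side of the threshold, 7 passed it only in the alternative and 40 changed sign, none of them past the threshold on either side. Those that changed sign in beta6 null minus wild type, given with quantile normalization, equal spread, array weights, the title suffix (1 or 2) as a block and without the 2 widest arrays in turn, were Fcgr3 (0.13, 0.124, 0.052, 0.022, 0.034) and Fcer2a (0.272, 0.224, 0.513, 0.06, 0.358). With the runs as a block, Fcgr3 became 0.061 in beta6 null minus wild type, Fcer1g -0.061 in TGFb1 minus beta6 null and -0.001 in TGFb1 minus wild type, and Fcer1a 0.241 in the latter. In beta6 null minus wild type Fcer1g became -0.046 with weights and -0.06 with the title suffix as a block, and Fcer1a -0.139 with weights and -0.038 without the widest arrays. In TGFb1 minus beta6 null, Fcer2a became -0.301 with weights and Fcer1g -0.111 with Xist as a covariate. With 1 array left out, beta6 null minus wild type ran from -0.324 to 0.281 for Fcgr3, -0.04 to 0.156 for Fcer1g, -0.185 to 0.925 for Fcer1a and -0.344 to 0.58 for Fcer2a. TGFb1 minus beta6 null ran from -0.071 to 0.125 for Fcer1g and -0.401 to 0.504 for Fcer2a, and TGFb1 minus wild type from -0.927 to 0.356 for Fcer1a and -0.123 to 0.58 for Fcer2a. Fcgr1 and Fcer2a had 14 values each, none on beta6 null replicate 1, so the setting with values on all 15 arrays left them out. Over all features the count in beta6 null against wild type, 126, ran from 0 (Xist as a covariate) to 422 (array weights), and in TGFb1 against beta6 null, 94, from 0 to 621 in the same settings. The split of higher and lower calls over all features, 48 and 78 in beta6 null against wild type, was 40 and 36 with quantile normalization and 30 and 31 with equal spread, and in TGFb1 against beta6 null the 77 and 17 became 8 and 7, and 8 and 3. Of the genes outside the Fc receptors, Lat2, Cd93 and Mmp12 passed between beta6 null and wild type in all settings but that with Xist as a covariate (28, 28 and 27 alternatives). In the same comparison Fgr and Pld2 passed in 7 each, Xist and Pilra in 10, Fcrls in 11, Blnk in 15 and Dok2 in 19, and none of these changed sign. Of the partners, Tyrobp in beta6 null minus wild type became 0.03 with the runs as a block and ran from -0.192 to 0.016 with 1 array left out. B2m in TGFb1 minus beta6 null became -0.012 with weights and -0.009 without the widest arrays, and ran from -0.009 to 0.405. The cause was not tested in any of these. Signal over background is not in the deposited ratios, so which low values it limits is unknown.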
